A study of Mus musculus with 13 samples.

Results

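Liver neutrophils were studied in mice fed a cholangitis-inducing diet. A cell barcode was counted as a neutrophil when it held at least 1500 unique molecular identifiers (UMIs), at least 20 UMIs of S100a8 and S100a9 together and at least 2 of Csf3r, Cxcr2 and Retnlg together. It could hold at most 1 UMI of C1qa, C1qb and C1qc together and none of Cd3e or Epcam. This left 3114 neutrophils among 95563 barcodes with at least 1500 UMIs. C57BL/6J mice received chow with 0.1% DDC, a dihydrocollidine compound that injures small bile ducts. Libraries came from untreated mice (D0, steady state), from day 3 and day 5 (D3 and D5, onset), from day 9, day 19 and day 25 (D9, D19 and D25, progression), and from mice returned to normal chow for 7 days after a long diet (STOP, recovery). Each atlas day has 1 library of isolation protocol A and 1 of protocol B, and STOP was made with protocol B. The second D19 library is labelled as day 18 in another field. Protocol A sorted all live singlets and Cd45+ cells among other fractions, whereas the leukocyte fraction of protocol B was Cd45+ Itgax+ Cd64-, beside live cells of the stellate cell preparation, Epcam+ cells and Cd3e+ cells. Animals were 6-12 weeks old, and the sources do not say which or how many mice each library holds, so p-values describe the spread between these libraries.

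Neutrophils are short-lived granulocytes that leave the bone marrow with their granules already filled and enter tissue along chemokine gradients. S100a8 and S100a9 form calprotectin, Csf3r is the receptor for G-CSF, and Cxcr2 binds the chemokines that draw neutrophils to injured ducts. Once in tissue, neutrophils can switch on cytokine, survival and adhesion genes, and interferon-stimulated genes mark another state.

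The number of neutrophils ran from 5 in D3 B to 754 in D9 A. D3 B was left out of the gene comparisons, which required 20 cells, and the other 11 atlas libraries held 71882 to 2400853 UMIs in neutrophils, with a median of 2206 to 4050 UMIs per cell. The alarmin threshold had 69 cells just inside, at 20 to 24 UMIs, and 63 cells just outside, at 15 to 19 UMIs. The receptor threshold had 278 cells with exactly 2 UMIs inside, and 231 with 1 and 150 with 0 outside. The C1q limit removed the most, 1250 of 5202 barcodes with the required depth and alarmin UMIs. It removed 8.62% of them in D0 A, 6.99% to 12.7% in the onset libraries of protocol A and 25.2% to 42.9% in the progression libraries of that protocol, and 4.13% to 15.6% in the protocol B libraries fitted. Its part in the shares was not tested. Within 100 UMIs of the depth threshold there were 113 cells above and 99 below. Any 2 libraries shared at most 49 cell barcodes (median 13 over 78 pairs), and 1 shared barcode was a neutrophil in both.

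The neutrophil label was checked against genes that the rule did not use. Mmp9 (gelatinase B) lay between 414 and 1301 CPM in the 11 libraries, where CPM are UMIs per 1000000 UMIs of a library's neutrophils. Il1b lay between 4434 and 23292 CPM. In monocytes of 10 of these libraries Mmp9 reached at most 4.76 CPM and Il1b 1202 CPM. Some other neutrophil genes were low or at 0 in several libraries: Camp ranged from 0 to 343 CPM (2.54 in D0 B, 0 in D19 B), Ngp from 0 to 537, Ltf from 2.54 to 252 and Cd177 from 12.7 to 168, while Cxcr1 was at 0 in 6 libraries and at most 17.9 CPM. Camp, Ngp and Cxcr1 were at 0 in the monocytes, but Cd177 there reached 181 CPM. Retnlg, a defining marker that the rule did use, was uneven: it stood at 4824 CPM in D0 A and 5348 in D0 B, at 2223 to 7237 in the diet libraries of protocol A, and at 55.6 to 563 in those of protocol B. Of other cell types, the summed T cell markers reached at most 320 CPM. The 10 endothelial markers summed to 2349 to 5240 CPM in the libraries of protocol A and to 337 to 1108 CPM in those of protocol B, while the summed dendritic cell markers reached 32622 CPM in D0 B against 368 to 13526 CPM in the 6 progression libraries. D0 B neutrophils also carried a B cell marker sum of 2849 CPM, against at most 668 CPM in any other library, and a median of 5 class II UMIs per cell. The part of other cells' RNA in the results was not tested, so calls between progression and steady state are also given without D0 B.

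Neutrophils made up 5.03% of barcodes in D0 A, 2.64% in D3 A, 2.47% in D5 A, 5.11% in D9 A, 7.88% in D19 A and 3.82% in D25 A. In protocol B the shares were 1.30% at D0, 0.324% at D3, 0.333% at D5, 0.896% at D9, 1.55% at D19 and 2.41% at D25. In both protocols the onset libraries were the lowest, and every progression library lay above every onset library of its protocol. Progression averaged 3.61% ± 2.59 (SD, n = 6) and onset 1.44% ± 1.29 (SD, n = 4), a difference of 2.17 percentage points (two-sided exact permutation of libraries within protocol, p = 0.03, where 0.01 is the smallest possible). Within protocol A the difference was 3.05 points and within protocol B 1.29 points, each with an exact permutation p of 0.2, where 0.1 is the smallest possible. The p rose to 0.11 when only barcodes with a Ptprc UMI formed the denominator and to 0.23 with a minimum of 2500 UMIs. Leaving out single libraries moved the exact permutation p between 0.0167 and 0.225, with the highest p without D3 B and without D5 B. Each omission leaves the protocols unequally represented between the groups, so the difference then also holds the gap between protocols. The diet libraries together differed from steady state by -0.42 points (exact permutation p = 0.722), and by -3.44 points of barcodes with a Ptprc UMI (exact permutation p = 0.139). Sorting at fixed ratios sets these shares, so they are not shares of the liver.

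**Figure D1:**
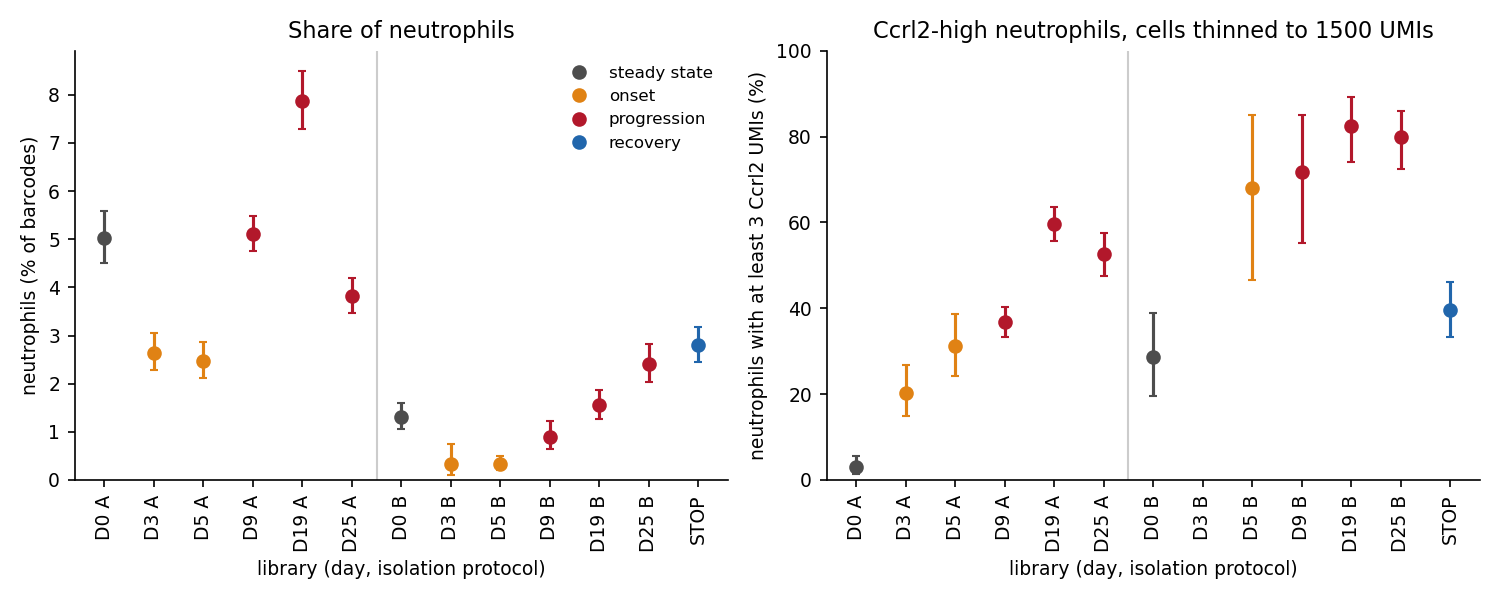
Share of neutrophils among barcodes with at least 1500 UMIs (left) and share of neutrophils with at least 3 Ccrl2 UMIs after thinning each cell to 1500 UMIs (right), per library, with 95% exact binomial intervals that cover counting error only. Protocol A is left of the grey line and protocol B right of it. D3 B, with 5 neutrophils, is left out on the right, where D0 A lies at 3.05% and D19 B at 82.6%.

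Gene levels were then compared between stages with isolation protocol as a term. Between progression and steady state, 72 of 8342 genes passed edgeR's adjusted p of 0.05, which is 0.863% of the genes tested. Of these, 19 were higher (0.228%) and 53 lower (0.635%) at progression. All 19 higher genes had the same sign in both protocols, and 18 lay above every steady-state value in all 6 progression libraries, as did 6.89% of all genes tested. Among the 53 lower genes, 43 were tested within both protocols, and all 43 had the same sign in both. Of the 53, 32 lay below every steady-state value, as did 3.15% of all genes tested. Without cells that held a marker of another lineage, 10 of the higher and 25 of the lower genes were called, with 52 of the 72 still tested. In cells thinned to 1500 UMIs these were 16 and 32, with 53 still tested. DESeq2 on all cells called all 19 higher genes and 41 of the lower ones. The count rests on the 2 D0 libraries: without D0 B it fell to 7, of which 4 were among the 72, and without D0 A it was 140, of which 30 were among the 72. The 4 were Ccrl2, the hepatocyte gene Serpina1e, and Mup3 and Mup11, which encode major urinary proteins of hepatocytes and belong to a family of close copies. All 19 higher genes and all 50 lower genes still tested kept their sign without D0 B, and 1 and 3 of them kept the call. Without D0 A, 6 of the 19 higher genes kept the call (Siglecf, Icam1, Olr1, Clec4n, Gadd45b and Ubash3b) and 24 of the 53 lower genes. All 19 then kept their sign, as did 52 of the 53, with Ccl24 as the exception. The count was also 124 without D9 A, 23 without D19 A and 21 without D25 A.

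The genes called higher at progression included Ccrl2, Siglecf, Icam1, Olr1, Clec4n and Clec5a, which encode surface proteins. Ccrl2, an atypical receptor that binds the chemoattractant chemerin, stood at 189 CPM in D0 A and 981 CPM in D0 B. At onset it stood at 763 CPM in D3 A, 1268 in D5 A and 5050 in D5 B. At progression it ranged from 1704 to 6354 CPM with a median of 3761. Every diet library lay above the D0 library of its own protocol, and no progression library overlapped steady state. The log2 fold change of progression against steady state was 2.90 (SE 0.49, edgeR adjusted p = 0.0117). It was 3.81 within protocol A (edgeR adjusted p = 0.0178) and 2.06 within protocol B (edgeR adjusted p = 0.114), and the edgeR adjusted p was 0.0571 without D0 A and 0.0435 without D0 B.

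One annotated start of Ccrl2 has a match to the NF-kB consensus, a motif bound by Rel-family factors. The promoter sequence is shown because Ccrl2 was the 1 higher gene still called without D0 B, and it comes from the RefSeq window chr9:111057469-111057768 on the minus strand (GRCm38.p6, 250 bases before to 50 after the start), with the match in capitals.
Ccrl2: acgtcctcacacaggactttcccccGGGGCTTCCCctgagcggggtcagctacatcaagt
The match begins at position -56 from that start, and the windows of 2 other annotated Ccrl2 starts hold none. Over both strands the consensus occurred in 7.81% of 26994 genes with a promoter window, in 10.4% of the 6631 tested genes with one and in 2 of the 16 called higher genes with one (12.5%).

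Siglecf, a sialic acid-binding lectin best known from eosinophils, stood at 5.97 CPM in D0 A and 17.8 CPM in D0 B. It ranged from 28.6 to 274 CPM at progression, with all 6 libraries above steady state. The log2 fold change was 3.60 (SE 0.62, edgeR adjusted p = 0.0133). In cells thinned to 1500 UMIs, 0.610% of D0 A and 3.30% of D0 B neutrophils held a Siglecf UMI, against 16.7% in D19 A and 37.6% in D19 B. T cells, used as a measure of free RNA, held one in at most 2.44% of cells. Unthinned, the neutrophil shares were 1.83%, 5.49%, 24.8% and 53.2%. The eosinophil gene Epx was at 0 in every library's neutrophils and Prg2 was at 0 in all but D9 B, at 4.62 CPM. These 2 genes alone cannot show whether eosinophils are present, and the part of eosinophil RNA in the Siglecf values was not tested.

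Icam1, the ligand of beta-2 integrins, stood at 52.7 CPM in D0 A and 50.8 CPM in D0 B and ranged from 135 to 480 CPM at progression (log2 fold change 2.31, SE 0.39, edgeR adjusted p = 0.0117). Olr1, the scavenger receptor for oxidised LDL, stood at 18.9 and 10.2 CPM at steady state and ranged from 93.1 to 273 CPM at progression (log2 fold change 3.32, SE 0.59, edgeR adjusted p = 0.0163). Clec4n, the pattern receptor Dectin-2, stood at 73.6 and 61.0 CPM and then ranged from 188 to 799 CPM (log2 fold change 2.33, SE 0.45, edgeR adjusted p = 0.0251). For each of these 3 genes all diet libraries lay above D0 of their protocol. Clec5a, a DAP12-coupled lectin, moved in the same way, from 35.8 and 48.3 CPM to between 108 and 398 CPM (log2 fold change 2.35, SE 0.48, edgeR adjusted p = 0.0332). Without D0 B the edgeR adjusted p was 0.137 for Icam1, 0.164 for Siglecf and for Olr1, 0.216 for Clec4n and 0.202 for Clec5a, with log2 fold changes of 2.22, 3.45, 2.80, 1.68 and 2.30. Without D0 A it was 0.0924 for Clec5a.

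**Figure D2:**
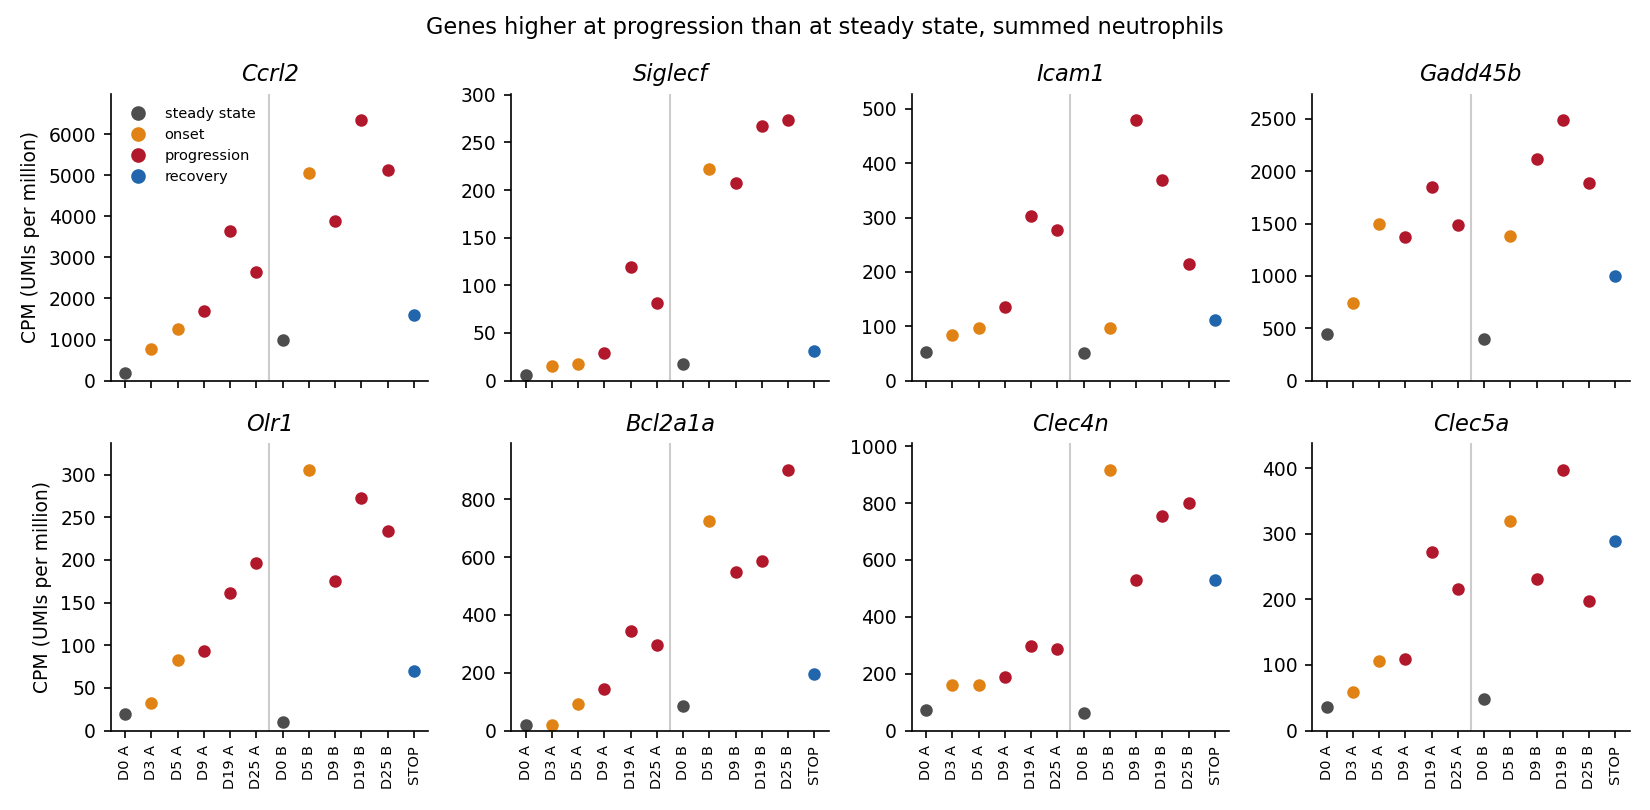
CPM of 8 genes called higher at progression, per library (points), coloured by stage, with protocol A left of the grey line. In each panel every progression point lies above both steady-state points, and Ccrl2 in STOP, at 1607 CPM, lies below all progression libraries.

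Among 17 survival and apoptosis genes tested, 2 were called and both rose (11.8% of the list, beside 0.228% of all genes). Gadd45b, a stress-response gene, stood at 446 CPM in D0 A and 394 CPM in D0 B and ranged from 1376 to 2492 CPM at progression (log2 fold change 1.99, SE 0.32, edgeR adjusted p = 0.0117). Bcl2a1a, a copy of the anti-apoptotic A1 gene, stood at 17.9 and 86.4 CPM and ranged from 144 to 903 CPM (log2 fold change 3.30, SE 0.69, edgeR adjusted p = 0.0367). Its near-identical copies can share reads, so the value for a single copy is uncertain. The copies Bcl2a1b and Bcl2a1d were not called. Bcl2a1b stood at 290 CPM in D0 B and 462 CPM in D19 B, and Bcl2a1d at 186 and 174 CPM. In the same 2 libraries Bcl2a1a stood at 86.4 and 587 CPM, so its rise does not hold for the copies alike. Bcl2l1, which encodes Bcl-xL, had a log2 fold change of 2.15 but an edgeR adjusted p of 0.0608. Over the list 12 of 17 values were positive, with a median log2 fold change of 0.58 against 0.02 over all genes tested. Without D0 B the edgeR adjusted p was 0.117 for Gadd45b and 0.200 for Bcl2a1a, and without D0 A it was 0.114 for Bcl2a1a.

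Further genes were called higher. Jak2, the kinase of the G-CSF and GM-CSF receptors, ranged from 147 to 434 CPM against 74.6 and 89.0 CPM (edgeR adjusted p = 0.0424, with 0.246 without D0 B and 0.0878 without D0 A). Maff, Cep83, Nek6, Ikbke and Tgm2 also passed, with log2 fold changes from 1.53 for Maff to 3.66 for Tgm2, and without D0 B their edgeR adjusted p lay between 0.0948 for Tgm2 and 0.246 for Maff. Without D0 A it lay between 0.0783 for Cep83 and 0.306 for Tgm2. Trem2, a lipid receptor of macrophages, rose from at most 2.54 CPM to between 9.24 and 41.3 CPM (edgeR adjusted p = 0.0346, with 0.128 without D0 B and 0.222 without D0 A). Trem2 was the 1 called gene of 9 macrophage and Kupffer markers tested (11.1%, beside 0.228% of all genes). All 9 had a positive log2 fold change, with a median of 1.75, and 5 were higher at an unadjusted edgeR p below 0.05 (55.6%, beside 5.81% of all genes). The 10 listed markers summed to 89.0 and 227 CPM at steady state and to 222 to 490 CPM at progression. The 5 cholangiocyte markers tested were also all positive, with a median log2 fold change of 2.35, and 4 were higher at an unadjusted edgeR p below 0.05 while none was called. The 9 listed ones summed to 15.2 and 131 CPM at steady state and to 147 to 452 CPM at progression. The part of macrophage and cholangiocyte RNA in the higher genes was not tested.

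The inflammatory cytokine and chemokine list had no called gene among 19 tested, but 9 were higher at an unadjusted edgeR p below 0.05, or 47.4% of the list beside 5.81% of all genes, and 2 were lower (10.5%, beside 7.28%). Of the 19, 13 were positive and 6 negative. Its median log2 fold change was 0.77. Il1b ranged from 5311 to 23292 CPM at progression against 4434 and 5198 CPM at steady state (log2 fold change 1.20, SE 0.38, edgeR adjusted p = 0.151). Tnf ranged from 261 to 568 CPM against 62.7 and 183 CPM (log2 fold change 1.83, edgeR adjusted p = 0.0562), so its groups did not overlap although it missed the threshold. Il1a was below 13 CPM in both D0 libraries and spread from 12.8 to 285 CPM at progression (log2 fold change 3.60, SE 0.94, edgeR adjusted p = 0.091). The 15 genes of NF-kB feedback had 13 positive values and a median of 0.65, with none called. Tnfaip3, which encodes the inhibitor A20, came closest, at 324 to 953 CPM against 126 and 178 CPM (log2 fold change 1.76, edgeR adjusted p = 0.0515).

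The genes lower at progression included interferon-stimulated genes. Of 27 genes of the type I interferon list, 25 were tested and all 25 had a negative log2 fold change, with a median of -1.52. Of these, 3 were called (12.0% of the list, beside 0.635% of all genes) and 21 were lower at an unadjusted edgeR p below 0.05 (84.0%, beside 7.28%). Isg15, a ubiquitin-like modifier, stood at 347 CPM in D0 A and 595 CPM in D0 B. It ranged from 22.9 to 205 CPM at progression, below both steady-state libraries (log2 fold change -2.48, SE 0.55, edgeR adjusted p = 0.044). Rtp4 ranged from 0 to 42.7 CPM against 121 and 66.1 CPM (log2 fold change -2.50, edgeR adjusted p = 0.044). Oas3, a 2'-5' oligoadenylate synthetase, had 119 CPM in D0 A but only 7.62 CPM in D0 B, which overlapped the 0 to 26.9 CPM at progression (log2 fold change -2.87, edgeR adjusted p = 0.0391). These 3 calls were lost without D0 A and without D0 B, while the list median was -1.63 and -1.28. Without D0 A, 22 of the 25 were negative and 3 positive, and without D0 B all 25 were negative. With D5 B, D9 B, D19 A or D25 A left out, 0 of the 25 were called and all 25 were negative. Dendritic cell markers were also lower on the same contrast, with all 10 tested negative at a median of -2.07, 7 lower at an unadjusted edgeR p below 0.05 and 1 called. The part of dendritic cell RNA in the interferon values was not tested.

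Called lower genes outside that list included some known to be inducible by interferon, a grouping made after their values were seen. Ifi27l2a stood at 538 CPM in D0 A and 493 CPM in D0 B, at 225 to 316 CPM at onset and at 52.9 to 216 CPM at progression (log2 fold change -2.34, SE 0.39, edgeR adjusted p = 0.0117, with 0.117 without D0 B and 0.0634 without D0 A). Trim12c, Trim30a, Trim30b, Ifi203, Ifi209, Sp100 and Il15 were called lower as well, with log2 fold changes from -2.39 for Ifi209 to -1.56 for Trim30a. Without D0 B their edgeR adjusted p lay between 0.117 for Ifi209 and 0.328 for Ifi203, and without D0 A between 0.0319 for Trim30b and 0.151 for Trim30a. Several of these sit in families of close copies, and their single values are uncertain. The interferon list stayed negative in all 25 genes when only neutrophils with at most 2 class II UMIs were used, in the 9 libraries that kept 20 such cells (median -1.33). Protocol B alone gave 15 of 17 negative (median -1.63) and protocol A alone gave 25 of 25 (median -1.32).

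Promoter stretches are shown for 3 interferon genes, because the list moved in 1 direction and these windows hold the core of the interferon-stimulated response element. The motif searched on both strands was GAAA, any 2 bases and GAAA again, in capitals here. The RefSeq windows (GRCm38.p6) are chr4:156200769-156201068 on the minus strand for Isg15, chr5:120777610-120777909 on the minus strand for Oas3 and chr19:34640639-34640938 on the plus strand for Ifit1.
Isg15: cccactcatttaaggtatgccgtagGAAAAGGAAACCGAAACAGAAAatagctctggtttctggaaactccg
Oas3: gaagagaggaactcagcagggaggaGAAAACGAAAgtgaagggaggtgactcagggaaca
Ifit1: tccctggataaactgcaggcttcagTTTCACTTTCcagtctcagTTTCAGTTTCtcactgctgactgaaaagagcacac
In Isg15 the capitals cover 3 overlapping matches, and in Ifit1 they lie on the opposite strand. The core occurred in 11 of 23 list genes with a window (47.8%), in 7 of 41 genes called lower (17.1%), in 1 of 16 called higher (6.25%), in 4.09% of the tested genes and in 3.98% of all genes with a window. A match describes these letters and is not a measured site.

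**Figure D3:**
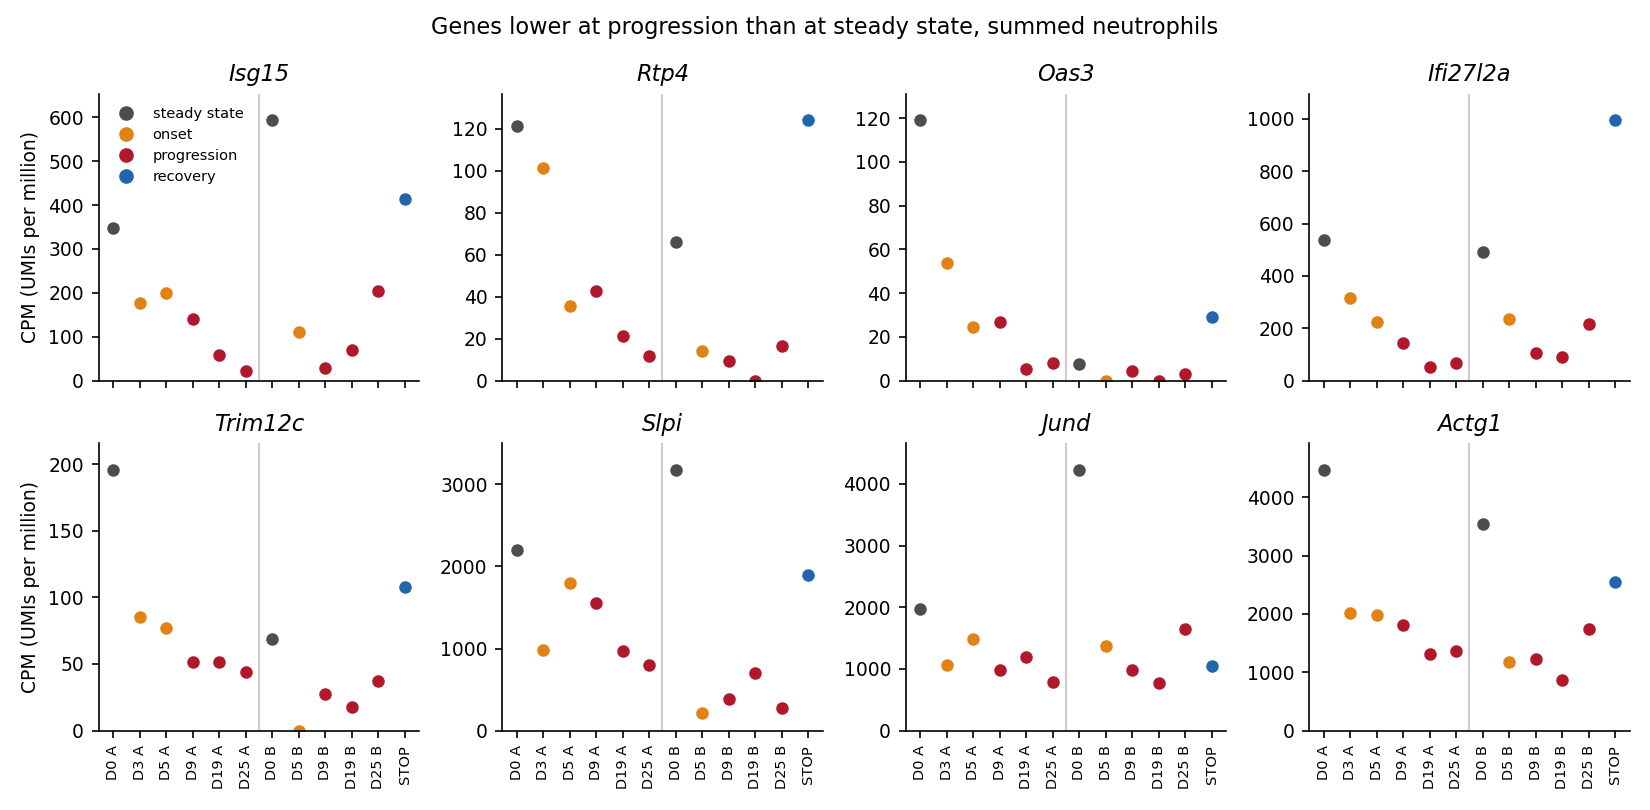
CPM of 8 genes called lower at progression, per library (points), coloured by stage, with protocol A left of the grey line. Except for Oas3, whose D0 B value of 7.62 CPM lies within the progression range, every progression point lies below both steady-state points.

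Of 23 genes tested in the primary, secondary and tertiary granule lists, 1 was called (4.35%, beside 0.635% of all genes). Slpi, a secreted protease inhibitor, stood at 2200 CPM in D0 A and 3182 CPM in D0 B and ranged from 274 to 1560 CPM at progression (log2 fold change -2.34, SE 0.50, edgeR adjusted p = 0.0391). The fall was unequal, at -0.95 within protocol A and -3.13 within protocol B, and -0.78 without D0 B (edgeR adjusted p = 0.652). The 12 secondary granule genes tested had a median of -0.43 with none called. Camp (cathelicidin) stood at 343 CPM in D0 A and 2.54 CPM in D0 B, so the steady-state libraries differed widely on it. Of 3109 neutrophils, 337 held at least 1 UMI of Ltf, Camp and Ngp together and 66 at least 3. With each cell thinned to 1500 UMIs these were 208 and 33, the latter at most 7 in any library.

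Scnn1a, a subunit of the epithelial sodium channel, stood at 133 CPM in D0 A and 68.6 CPM in D0 B and ranged from 2.90 to 35.4 CPM at progression (log2 fold change -3.15, edgeR adjusted p = 0.00685, and 0.0641 without D0 B). Actg1 (gamma actin) ranged from 863 to 1813 CPM against 4475 and 3535 CPM (log2 fold change -1.66, edgeR adjusted p = 0.0171, and 0.216 without D0 B). Jund, an AP-1 subunit, ranged from 770 to 1649 CPM against 1965 and 4234 CPM (log2 fold change -1.67, edgeR adjusted p = 0.0282, and 0.412 without D0 B). A further group was made of genes of other cells: all 5 B cell markers tested were called lower (beside 0.635% of all genes), together with Ebf1 (605 CPM in D0 B, 34.8 in D0 A) and H2-DMb2 (234 CPM in D0 B, 13.9 in D0 A). Without D0 B, 0 of the 4 B cell markers still tested were called (edgeR adjusted p from 0.0641 to 0.578), nor were Ebf1 and H2-DMb2 (edgeR adjusted p = 0.382 and 0.253). Serpina1e, a hepatocyte protease inhibitor, fell from 191 and 86.4 CPM to at most 8.98 CPM (edgeR adjusted p = 0.000562, and 0.00294 without D0 B). Of 9 hepatocyte markers tested, 0 were called, with 2 positive and 7 negative at a median log2 fold change of -0.46. The 10 listed ones summed to 1432 CPM in D0 A and 330 CPM in D0 B, and to 279 to 1820 CPM at progression. In D0 B, 22 of 91 neutrophils had at most 2 class II UMIs. With only such cells, D5 B and D9 B fell below 20 cells and were left out, and in the other 9 libraries 58 genes were called, 27 higher and 31 lower, and 14 of the 19 higher genes and 17 of the 37 lower genes still tested were among them.

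**Figure D4:**
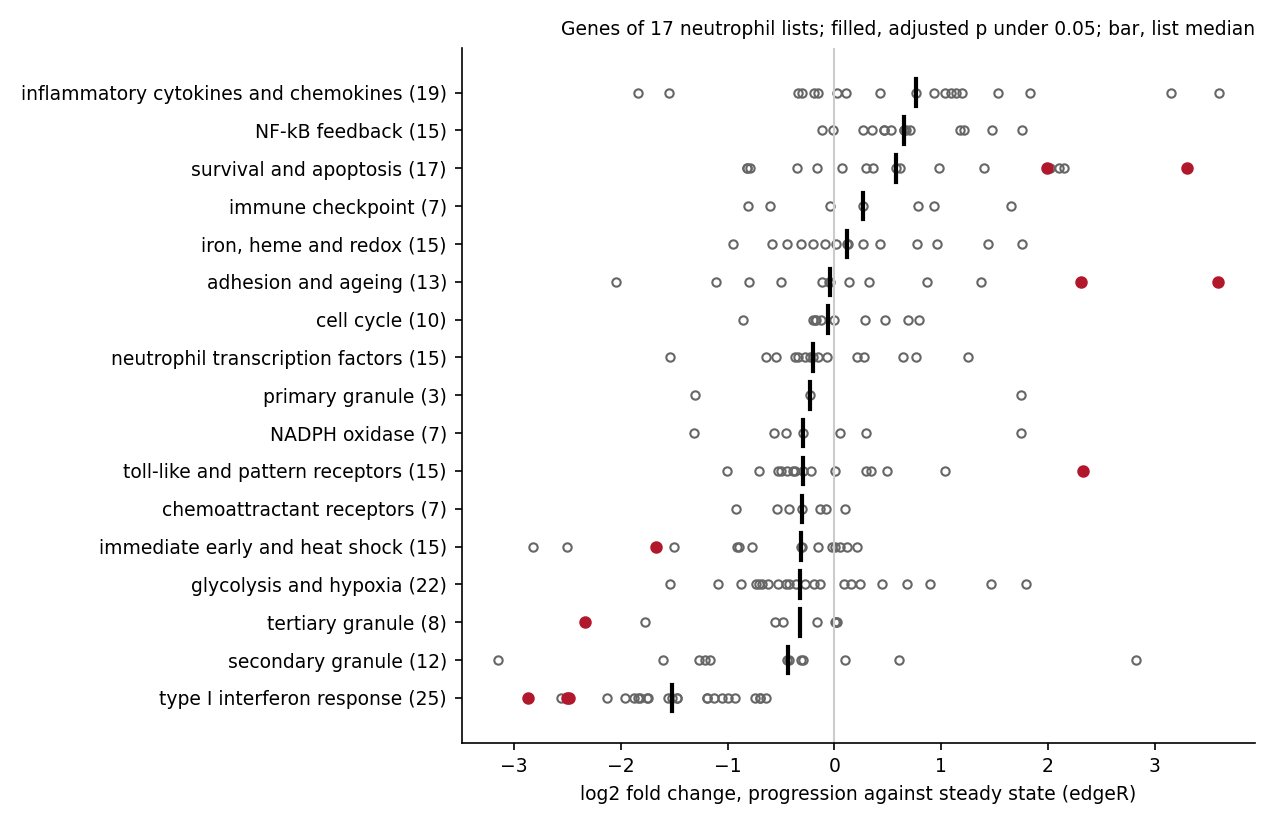
Log2 fold change of progression against steady state (x axis, edgeR) for the tested genes of 17 neutrophil gene lists, with the number tested in brackets. Filled points passed the adjusted p and bars mark list medians. The type I interferon list has all 25 points below 0 and the median of -1.52.

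The rise of Ccrl2 was also visible as a share of cells. After thinning to 1500 UMIs, 3.05% of neutrophils in D0 A held at least 3 Ccrl2 UMIs (95% exact binomial interval 1.47 to 5.54%), 20.3% in D3 A, 31.1% in D5 A, 36.7% in D9 A, 59.7% in D19 A and 52.6% in D25 A. In protocol B the shares were 28.6% at D0, 68.0% at D5, 71.8% at D9, 82.6% at D19 and 79.9% at D25. Each diet library lay above the D0 library of its protocol, and protocol B lay above protocol A on each day shown. Unthinned shares were 7.62% in D0 A, 48.4% in D0 B, 77.1% in D19 A and 89.9% in D19 B. T cells reached the same level in at most 1.52% of cells, except in D19 A with 9.76% of 41 T cells, which also carried a mean of 25.7 S100a8 and S100a9 UMIs. The cut of 3 UMIs was chosen after the data were seen and describes a range, not a cell type.

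Within the 8 libraries that held at least 10 cells of both kinds, cells with at least 3 Ccrl2 UMIs were set beside cells with none. These were all atlas libraries of protocol A, D0 B and STOP. The diet libraries of protocol B held only 3 to 8 cells with none, so the comparison does not cover them. D0 A entered with 10 Ccrl2-high cells. Gadd45b, Cxcl2, Ptgs2 and Vegfa were higher in the Ccrl2-high cells in 8 of 8 libraries. Il1b, Tnf, Il23a, Olr1, Clec4n, Siglecf and Bcl2a1a were higher in 7 of 8, with median CPM of 578 against 111 for Tnf and 185 against 7.53 for Il23a. Mmp8 (neutrophil collagenase) was lower in 8 of 8 libraries, at a median of 91.0 against 294 CPM. Ptprb, a gene of endothelial cells, was also lower in 8 of 8, at a median of 295 against 798 CPM. The class II gene Cd74 was lower in 5 and higher in 3, and in D0 B stood at 4026 against 20294 CPM. The 2 kinds of cells thus also differed in RNA of other cells, and its part in this comparison was not tested. Isg15 was higher in 6 of 8 and Rsad2 in 3 of 8. The genes compared here were a chosen panel. The share of all genes higher or lower in as many libraries was not counted. These counts therefore have no background beside them and are given as values only.

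Between onset and steady state, 0 genes were called higher and 1 lower (0.012% of 8342), while 526 had an unadjusted edgeR p below 0.05 and DESeq2 called 6 higher and 15 lower. The 1 gene was Ccl24, an eosinophil chemoattractant made by macrophages, which had 115 CPM in D0 A and was at 0 in D0 B and at onset. It was not among the genes called by DESeq2, which gave it no adjusted p. Clec4n had the smallest unadjusted p among the higher genes and did not pass (log2 fold change 2.03, SE 0.47, edgeR adjusted p = 0.443). For Ccrl2 the onset value was 2.03 against steady state, beside 2.90 for progression, and for Gadd45b 1.37 beside 1.99, both against the same D0 libraries. Onset had 3 libraries, and for this comparison 68% of genes simulated with a log2 change of 2 were recovered, beside 83% for progression against steady state. These rates, and the one for monocytes below, are for genes above a minimum mean CPM, with no difference between protocols simulated. They do not cover lower genes or the spread that the protocols add. Between progression and onset 4 genes were higher and 0 lower (0.048%, with 417 at an unadjusted edgeR p below 0.05, while DESeq2 called 17 higher and 4 lower): Cd5l, Marco, Dcn and Ccl24. Cd5l and Marco are Kupffer cell genes and Dcn is a fibroblast gene. Marco stood at 0 to 66.6 CPM at progression, and 0 of the 3 genes still tested were called once cells with another lineage marker were left out. Ccrl2 did not pass (log2 fold change 0.86).

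Monocytes of the same libraries, defined by Ly6c2 and Ccr2 without the neutrophil receptors, served as a neighbouring myeloid type. The test used 1395 monocytes of 10 libraries and left out D19 A, a progression library with 13 monocytes. The change from onset to progression differed between neutrophils and monocytes for 4 of 9077 genes (0.0441%), 1 larger and 3 smaller in neutrophils. Col3a1, a collagen gene, differed by 9.09 on the log2 scale, and the globin genes Hba-a2, Hbb-bs and Hbb-bt by -9.65 to -13.4. The globin UMIs lay mostly in D5 A, where erythroid markers summed to 18297 CPM in neutrophils against at most 426 CPM in any other library. Without D5 A, Hba-a2 and Hbb-bs turned to 0.85 and 1.67 (edgeR adjusted p = 1 for both) and Hbb-bt was not tested. Without D25 A, Hba-a2 and Hbb-bs stood at -3.74 and -10.1 and neither passed (edgeR adjusted p = 1 and 0.666), and Hbb-bt was again not tested. Col3a1 was lost without D3 A (3.57, edgeR adjusted p = 1) and without D25 A (8.05, edgeR adjusted p = 0.116). The difference for Ccrl2 was 0.84 (SE 0.49, edgeR adjusted p = 0.874) and for Icam1 1.70 (SE 0.51, edgeR adjusted p = 0.508). For this comparison 41% of genes simulated with a log2 change of 2 were recovered.

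The recovery library was set beside D19 B, the protocol B library of the same diet length, with 237 and 109 neutrophils. With 1 library each there is no test, and the Poisson intervals below cover counting error only. Of 905 genes with at least 200 CPM in either library, 593 (65.5%) had separate intervals. D19 B is also 1 of the progression libraries behind the calls, so the directions below are not independent of them. Of the 19 genes called higher at progression, 17 were lower in STOP than in D19 B, 13 with separate intervals (68.4%, beside 9.93% of the genes tested). Separation depends on the counts: of the 12 with at least 200 CPM in either library all 12 were separate and lower, beside 34.7% of the 905 genes. Ccrl2 fell from 6354 CPM (95% interval 6091 to 6626) to 1607 CPM (1528 to 1689), against 981 CPM in D0 B, and Siglecf from 267 to 31.3 CPM. Neutrophils with at least 3 Ccrl2 UMIs made up 39.7% in STOP beside 82.6% in D19 B.

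Interferon genes went the other way. All 25 tested genes of the list were higher in STOP than in D19 B, 22 with separate intervals (88.0%, beside 9.57% of the genes tested). Of the 6 with at least 200 CPM in either library all 6 were separate and higher, beside 30.8% of the 905 genes. Dendritic cell markers summed to 13504 CPM in STOP against 3354 CPM in D19 B, among them Xcr1 at 97.2 against 2.90 CPM, and Cd74 stood at 5688 against 1449 CPM. Their part in the interferon values was not tested. Isg15 stood at 69.7 CPM in D19 B, 415 CPM in STOP and 595 CPM in D0 B. Ifi27l2a stood at 90.0, 997 and 493 CPM, so that STOP lay above D0 B. Rtp4 had no UMI in D19 B and 119 UMIs in STOP, at least 14.3-fold higher against a floor of 3 counts in D19 B. Of the 53 genes called lower at progression, 39 were higher in STOP and 5 lower. The 23 with separate intervals were all higher (43.4%, beside 9.57% of the genes tested). Of the 8 with at least 200 CPM in either library all 8 were separate and higher, beside 30.8% of the 905 genes. D19 B helped make these calls, so this direction is not independent of them.

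Large differences between STOP and D19 B included genes of other cells. Col3a1, a member of the stellate and fibroblast list, stood at 1996 CPM in STOP and 11.6 CPM in D19 B. Outside the marker lists of other cells, Fabp1, a hepatocyte fatty acid-binding protein, stood at 1049 CPM in STOP and 2.90 CPM in D19 B, and Colec11, Serpinh1, Cxcl12 and Steap4 followed by ratio among genes of at least 200 CPM. Stellate and fibroblast markers summed to 6685 CPM in STOP neutrophils against 189 CPM in D19 B, and their part in these values was not tested. In the other direction, Chil3, a chitinase-like protein of neutrophils and macrophages, stood at 1905 CPM in D19 B and 1.04 CPM in STOP. Ngp, H1f4 and the cell-cycle inhibitor Cdkn1a were lower too, Cdkn1a at 166 CPM against 1809 CPM. Il1a fell from 285 to 9.40 CPM.

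**Figure D5:**
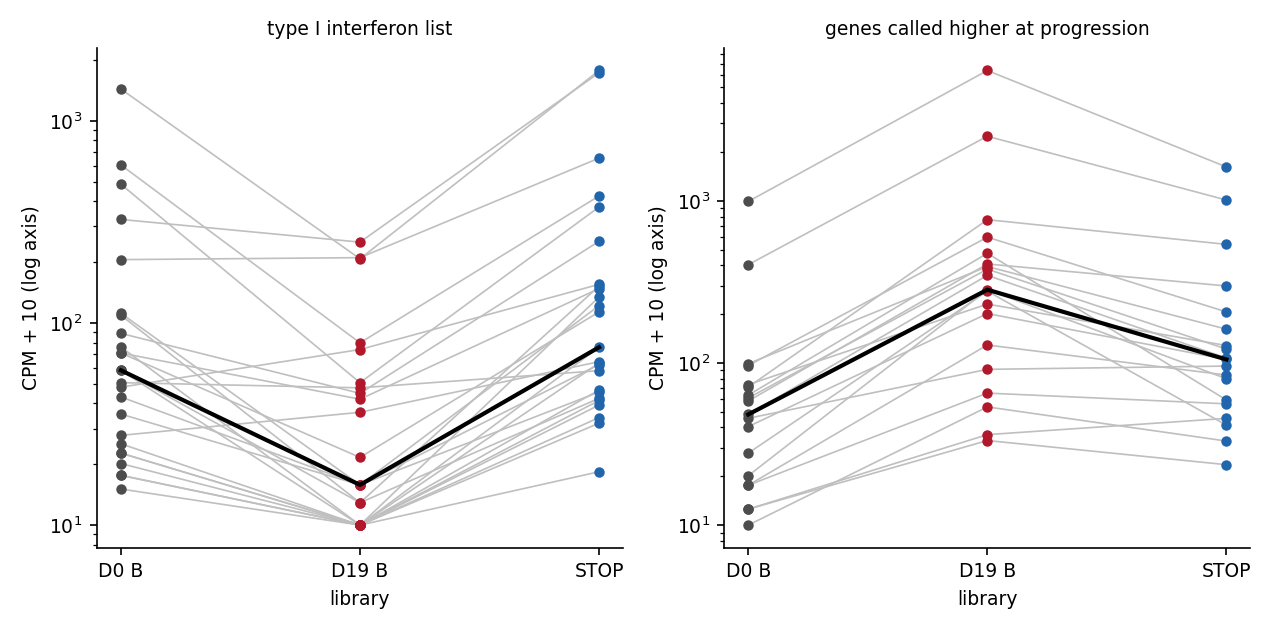
CPM + 10 on a log axis in D0 B, D19 B and STOP, 1 library each, for the 25 tested type I interferon genes (left) and the 19 genes called higher at progression (right). Grey lines join a gene's values and the black line joins medians. All 25 interferon genes are higher in STOP than in D19 B, and 17 of the 19 are lower.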

How the data were processed

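The authors deposited UMI counts per gene and barcode for 13 libraries, made with 10x Genomics 3' kits and mapped with kallisto (GRCm38, per the labels; version and annotation are not given in the sources used here). All barcodes are in the matrices, unfiltered. The study's depth threshold of 1500 UMIs was applied, and neutrophils were chosen by the UMI rule given above. The members and gene lists were chosen with earlier results of these data known. UMIs were summed per library, and libraries with at least 20 neutrophils entered edgeR 4.0.16 (TMM, filterByExpr, quasi-likelihood test, Benjamini-Hochberg 0.05) with stage and protocol as terms; DESeq2 1.42.0 was an alternative. Standard errors are the log2 fold change divided by the root of F. Monocytes entered an interaction model with library as block. Shares were tested by exact permutation within protocol. Doublets were called with Scrublet, through scanpy 1.11.5, only for an alternative. The fits were tested on simulated counts. Named genes were list members that were called and up to 10 called genes per direction whose mean log2 CPM reached 5; others were chosen after their values were seen. Intervals cover counting error only. Sequences are from RefSeq. Some items are not reported here.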

Additional observations from a re-analysis of the deposited data

Results flagged for a closer look

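Within the 6 progression libraries, 5 of 84 groups of values had 1 library far from the others by Dixon's criterion, where chance gives about 1 in 20. These were Serpina1e in D25 B (8.98 CPM, the next at 0.854), Cep83 in D19 B (337 CPM, the next at 157), Oas3 in D9 A (26.9 CPM, the next at 8.25), Camp in D9 A (69.6 CPM, the next at 7.48) and Hspa1b in D9 A (193 CPM, the next at 64.4).

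The change from onset to progression differed between neutrophils and monocytes for Col3a1 (9.09 on the log2 scale), Hba-a2 (-9.65), Hbb-bs (-12.3) and Hbb-bt (-13.4) in edgeR's interaction test.

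For 7 genes every progression library of protocol A moved one way from D0 A and every one of protocol B the other way from D0 B; the difference was not tested. The mean changes in protocols A and B were -1992 and 770 CPM for Neat1, 13232 and -8828 CPM for Cxcl2, 2393 and -264 CPM for Nfkbia, -285 and 257 CPM for Cxcr4, -363 and 422 CPM for Mmp9, -205 and 64.3 CPM for Ltf, and -121 and 274 CPM for Cxcr2, which is 1 of the genes that chose the cells. Each rests on a single D0 library per protocol. The share of all tested genes with this pattern was not counted, so the 7 cannot be set beside a background and are given as values only.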

How the results depend on the processing

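Each stage has few libraries and steady state has 1 per protocol, so calls move with single libraries. The difference in share between progression and onset was 1.08 points with at least 2500 UMIs, 2.49 of Ptprc barcodes, 3.05 in protocol A and 1.29 in protocol B, none past the threshold, and 1.32 to 2.71 with single libraries left out. The diet against steady-state difference was 1.44 points without D0 A and -2.28 points without D0 B (range -2.28 to 1.44). Steady state then held a single protocol and the diet libraries both, so these values also hold the gap between protocols. Within protocol A the difference was -0.644 points and within protocol B -0.198 points. The progression against onset values with single libraries left out carry the same limit.

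For progression against steady state the 72 genes became 209 with DESeq2, 424 with no filter on low counts, 110 at 1000 UMIs, 42 at 2500 UMIs, 127 in thinned cells, 38 with at least 50 neutrophils per library and 27 in protocol A, with 7 to 140 when single libraries were left out. The 4 genes of progression against onset became 21 with DESeq2, 141 with no filter, 9 with at least 50 neutrophils, 21 in protocol A, 20 with at most 2 class II UMIs (an alternative chosen after seeing the data) and 0 at 2500 UMIs, without cells of another lineage marker, in thinned cells and in protocol B, with 0 to 9 when single libraries were left out. The 1 gene of onset against steady state became 21 with DESeq2, 147 with no filter, 8 in protocol A and 0 in thinned cells, in protocol B and with at most 2 class II UMIs (0 to 3 with single libraries left out). The 4 genes of the monocyte comparison became 94 with no filter and 2 without Scrublet doublets (0 to 12 with single libraries left out). Causes of these moves were not tested, beyond the fewer genes tested or libraries used. For single genes, called or named by rule, 1643 values kept direction and side of the threshold, 585 lost the call and 55 gained it in the same direction, and 6 reversed. Of these, Ccl24 between progression and steady state turned to 2.69 without D0 A (range -2.50 to 2.69 with single libraries left out) and 6.62 with at most 2 class II UMIs, and in the monocyte comparison Hba-a2 turned to 0.85 (range -10.1 to 0.85) and Hbb-bs to 1.67 (range -15.9 to 1.67) without D5 A. In protocol B alone, Lrp1 turned to -0.093 and Serpina1e to 3.64 between progression and onset, where neither had been called. No paired analysis was possible because the labels give no replicate numbers shared between stages; protocol was a term in the stage fits that used both protocols.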
